A study of Mus musculus with 41 samples.

Results

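Type I collagen is encoded by Col1a1 on chromosome 11 and Col1a2 on chromosome 6, and the chromatin around both genes held 139 of the 155773 peaks in 8 lists of transcription factor binding sites from mouse skeletal cells and fibroblasts. Members were all peaks of the 8 lists whose centre lay in mm9 chr11:94600000-94900000, with Col1a1 at about chr11:94797500-94814400, or in mm9 chr6:4400000-4550000, with Col1a2 at about chr6:4455700-4491500. The Col1a1 window (300 kb) held 109 of the members and the Col1a2 window (150 kb) held 30. The members were chosen by the position of their peaks, in windows set with earlier results of these data known, so counts and overlaps below are a description and no test was made. The nearest excluded peaks lay 0.852 kb beyond the far border of the Col1a2 window and 2.59 kb beyond that of the Col1a1 window, both in a 3T3 list whose name and sample labels disagree (nominal GFP day 3, described below), and the last peak inside the Col1a2 window lay 63.0 kb before that border. The gene spans were given to the nearest 100 bp or so, and their lengths of 16.9 kb and 35.8 kb compare with 16.8 kb and 35.9 kb in the RefSeq annotation of GRCm38, a later build whose coordinates were not carried over.

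The series asked how Runx2, the transcription factor required for bone formation, sits in the chromatin of skeletal cells. Runx2 carrying a FLAG tag was precipitated from P1 (postnatal day 1) Runx2-BioFL/+ knock-in C57BL/6 mice, from chondrocytes of the rib and osteoblasts of the calvaria, so the tagged protein came from 1 of the alleles in each cell (2 libraries and 1 peak list per cell type). In wild-type C57BL/6 mice of the same age, the forkhead factor Foxa2 was precipitated in chondrocytes of the rib and the AP-1 protein Jun in osteoblasts of the calvaria (1 library each). The same FLAG precipitation was made from cultured 3T3 fibroblasts overexpressing Runx2BioFL or, as background, GFP, at day 0 and after 3 days of osteogenic medium, which held ascorbic acid phosphate, β-glycerophosphate and rhBMP-2 at 100 ng/ml (1 library per condition). Primary cells were dissected by hand and released with enzymes, and the labels name no sort for these libraries. All chondrocytes came from rib and all osteoblasts from calvaria, so cell type and skeletal site cannot be told apart. Of the 3T3 lists, the one named for Runx2 day 0 was tied by the labels to the GFP day 3 sample and the one named for GFP day 3 to the Runx2 day 0 sample. Both were used under their own names, as the nominal Runx2 day 0 and the nominal GFP day 3 lists, and the main counts that rest on them are also given with the lists exchanged. Wherever a site is described below as holding both 3T3 Runx2 lists and not nominal GFP day 3, the exchange makes it a site of Runx2 day 3 and GFP day 3.

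With 1 list per group, none of the values carries a replicate error. The lists held positions only, with no height, score or p-value, and the sources used here do not give the read depth. A place without a peak may have been bound below the authors' threshold, and in these bulk samples fewer cells with a bound site and less binding per cell cannot be told apart.

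Type I collagen is the main fibrous protein of bone, skin and tendon, assembled from alpha 1 chains made by Col1a1 and alpha 2 chains made by Col1a2. Osteoblasts and fibroblasts make it in large amounts, while cartilage cells build their matrix mainly on type II collagen and make little type I. Runx2 and AP-1 act through short DNA motifs in promoters and distant enhancers, and Runx2 is known to act on the Col1a1 promoter. For Col1a2 a far-upstream enhancer active in mesenchymal cells has been described in the mouse. Its position on this build was not used here.

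The promoter of Col1a2 is shown because no promoter sequence was matched for Col1a1. Peaks of Jun and of both 3T3 Runx2 lists lay at the start of Col1a2. The sequence is that of RefSeq on GRCm38.p6, chr6:4505368-4505667, plus strand, with every match to the motifs below in capitals. It runs from 250 bases before to 50 bases after the start that RefSeq annotates. Motif positions are counted from that start, and where transcription begins in these cells was not examined. The table used for promoters matched 1 of the 2 genes, Col1a2.

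Col1a2 promoter: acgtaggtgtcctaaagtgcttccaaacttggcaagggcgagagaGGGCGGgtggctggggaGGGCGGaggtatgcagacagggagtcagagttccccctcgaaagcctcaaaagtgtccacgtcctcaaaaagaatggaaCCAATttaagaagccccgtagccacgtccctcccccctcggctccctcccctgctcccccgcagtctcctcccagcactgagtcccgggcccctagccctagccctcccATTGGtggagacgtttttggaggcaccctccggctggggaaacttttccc

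The capitals mark 2 matches to GGGCGG, the GC box that Sp factors bind, beginning 205 and 188 bases before the start, and 2 matches to CCAAT, the box bound by NF-Y, one beginning 109 bases before the start and one on the opposite strand (ATTGG) beginning at the start itself. No match was found on either strand to the RUNX motif TGTGGT, the AP-1 motif TGANTCA or the FOX motif TGTTTAC, and none of the marked matches overlapped another. Of the 32851 promoters of the same length in the table, 16.8% held TGTGGT, 7.81% TGANTCA, 3.65% TGTTTAC, 37.4% CCAAT and 35.7% GGGCGG. Its G and C content was 61%, against a median of 52.7% over these promoters. Peaks were placed on mm9 and the sequence on GRCm38.p6, so no peak was laid on these bases.

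Osteoblast Runx2 and osteoblast Jun were dense at both genes, and the chondrocyte lists had fewer peaks at Col1a1 and none at Col1a2. At Col1a1 the osteoblast Runx2 list had 16 peaks and the chondrocyte Runx2 list 4, although the chondrocyte list was the longer (15390 peaks against 10241). At Col1a2 osteoblast Runx2 had 6 peaks and chondrocyte Runx2 had none. Osteoblast Jun had 24 peaks at Col1a1 and 8 at Col1a2, and chondrocyte Foxa2 had 4 and none.

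As densities, osteoblast Runx2 stood at 5.33 peaks per 100 kb at Col1a1 and 4.0 at Col1a2, against a mean of 0.388 over the whole list. Jun stood at 8.0 and 5.33 peaks per 100 kb, against 0.566. At Col1a1 and Col1a2 these densities were 13.7 and 10.3 times the list mean for Runx2, and 14.1 and 9.42 times for Jun. When every chromosome was divided into tiles of the window's length, 0.0454% of the 8806 tiles of 300 kb held at least 16 osteoblast Runx2 peaks, and the same 0.0454% (4 tiles) held at least 24 Jun peaks. For Col1a2, 0.994% of 17604 tiles of 150 kb held at least 6 osteoblast Runx2 peaks and 0.977% at least 8 Jun peaks. The tiles lay on a fixed grid while the windows were chosen for their genes, so these shares only place the counts among others.

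Chondrocyte Runx2 at Col1a1 stood at 1.33 peaks per 100 kb, 2.29 times its list mean of 0.583, and 18.4% of tiles held at least 4 of its peaks. Foxa2 had the same 1.33, or 2.39 times its mean of 0.558, and 16.8% of tiles held at least 4. Counts of this size were common over the genome for both chondrocyte lists. The median tile of 150 kb held 0 peaks of either list, so a window without them, as at Col1a2, was common too.

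Among the 3T3 lists, nominal Runx2 day 0 had 23 peaks at Col1a1 and 6 at Col1a2, and the Runx2 day 3 list had 25 and 9. These lists were long, and 1.39% and 4.89% of tiles held as many peaks as the Col1a1 window, 10.8% and 11.2% as many as the Col1a2 window. The GFP day 0 list had 2 peaks at Col1a1, a count reached by 6.08% of tiles, and none at Col1a2. The nominal GFP day 3 list had 11 at Col1a1 (3.08% of tiles) and 1 at Col1a2 (31% of tiles). The order of counts at Col1a1 was thus Runx2 day 3, nominal Runx2 day 0, nominal GFP day 3 and GFP day 0. The lists stood in the same order by length (50180, 31013, 16799 and 2475 peaks). As multiples of the list mean, the Col1a1 densities were 4.38, 6.52, 5.76 and 7.11 in that order, highest for GFP day 0. At Col1a2 they were 3.16, 3.40, 1.05 and 0. With the crossed lists exchanged, Runx2 day 0 had 11 and 1 peaks and GFP day 3 had 23 and 6. The order of counts therefore rests on the lists' names, and the multiples move with the lists.

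**Figure D1:**
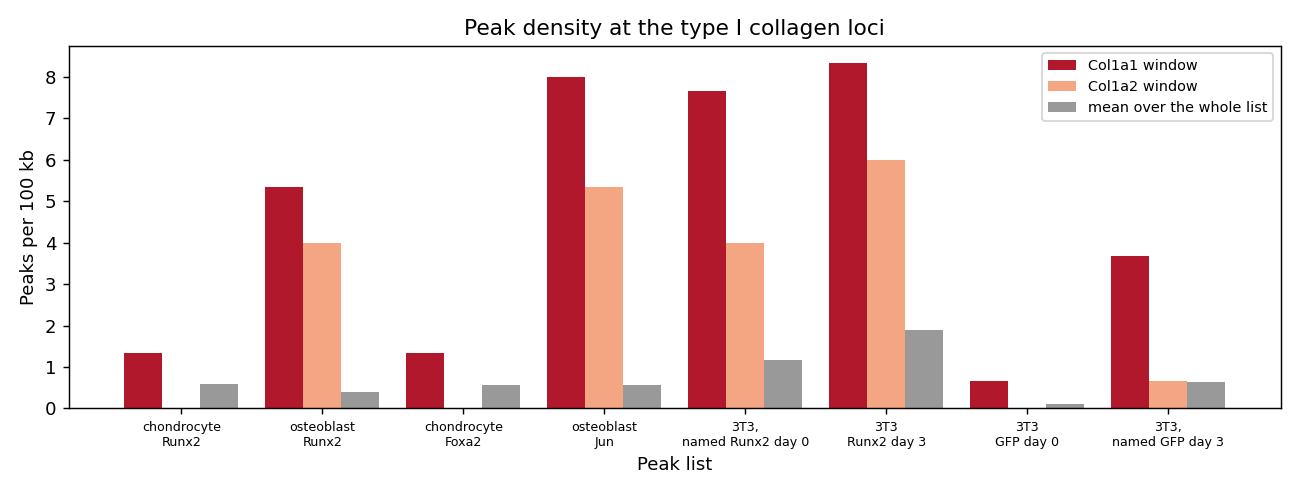
Peaks per 100 kb (vertical axis, from 0) of each of the 8 lists in the Col1a1 window, in the Col1a2 window and as the mean over the whole list; each bar is 1 list with no replicate. Osteoblast Runx2 (5.33 and 4.0) and Jun (8.0 and 5.33) stand far above their list means of 0.388 and 0.566, while both chondrocyte lists have 1.33 at Col1a1 and no peak at Col1a2. The median tile of 150 kb also holds 0 peaks of either chondrocyte list.

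Peaks that overlapped by at least 1 bp, in any of the lists, were joined into sites, giving 56 sites at Col1a1 and 17 at Col1a2. Of the 73 sites, 43 were in 1 list, 15 in 2, 5 in 3, 7 in 4, 2 in 5 and 1 in 6. Along Col1a1, with peaks up to 5 kb apart taken as 1 group, the sites fell into 13 groups, and 4 of these held 88 of the 109 peaks. They lay between 70.2 and 53.1 kb upstream (25 peaks, 14 sites), between 22.4 and 14.6 kb upstream (18 peaks, 7 sites), from 8.08 kb upstream to 6.15 kb inside the gene (21 peaks, 11 sites), and between 52.7 and 57.1 kb downstream of the start (24 peaks, 9 sites).

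**Figure D2:**
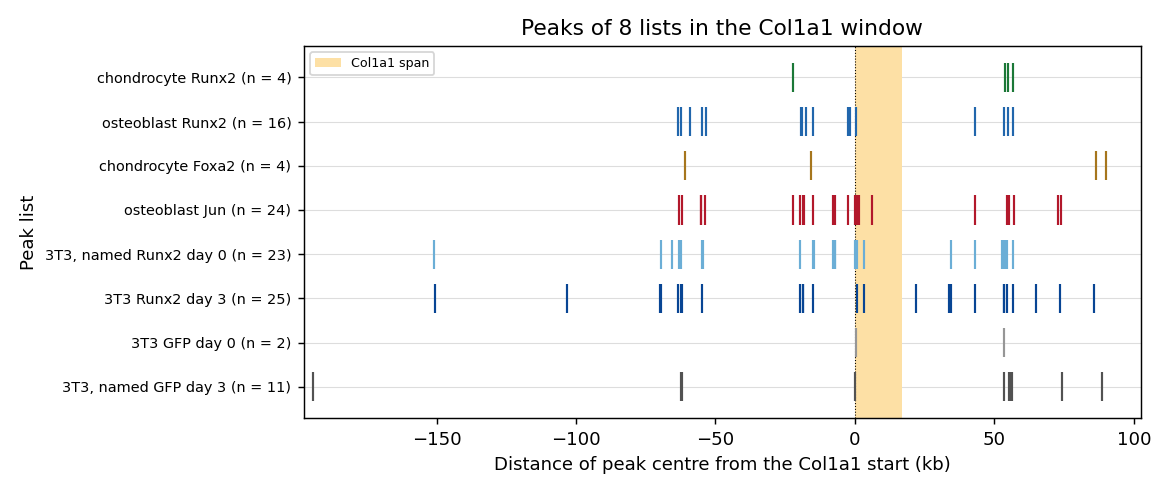
Position of every peak in the Col1a1 window, as the distance of its centre from the gene start in kb (horizontal axis), with 1 row per list, 1 tick per peak and the gene span shaded. Osteoblast Runx2, Jun and the 3T3 Runx2 lists fall into the same groups upstream, at the gene start and downstream, whereas 3 of the 4 chondrocyte Runx2 peaks lie in the downstream group. GFP peaks also lie in the farthest dense group upstream, at the start and in the downstream group. They number 2, 2 and 6 under the lists' names and 6, 7 and 6 with the crossed lists exchanged.

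The farthest dense group upstream of Col1a1 held osteoblast and 3T3 peaks, with 1 Foxa2 peak and no chondrocyte Runx2 peak. Its broadest agreement was at chr11:94742404-94742685, 55.0 kb upstream, where osteoblast Runx2, Jun and both 3T3 Runx2 lists overlapped. The osteoblast Runx2 peak there came 943rd in its file and was the earliest of that list in either window, though how the files were ordered is not stated. A second site at chr11:94734893-94735245 (62.4 kb upstream) joined osteoblast Runx2, both 3T3 Runx2 lists and the nominal GFP day 3 list, without Jun.

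Beside it, Jun lay at chr11:94734248-94734517 with the nominal Runx2 day 0 list, and at chr11:94735338-94735643 with Runx2 day 3 and the nominal GFP day 3 list. Osteoblast Runx2 lay at chr11:94733960-94734167 with 3T3 Runx2 day 3. Of the 5 osteoblast Runx2 peaks in this stretch 1 overlapped Jun, and the other 4 lay 97, 282, 299 and 2623 bp from the nearest Jun peak. The Foxa2 peak, chr11:94736478-94736601, overlapped no other list.

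In the second upstream group, 3 sites joined osteoblast Runx2 and Jun with 3T3 Runx2. At chr11:94777901-94778085 (19.5 kb upstream) and at chr11:94782334-94782537 (15.1 kb upstream) all of osteoblast Runx2, Jun and both 3T3 Runx2 lists overlapped. At chr11:94778417-94779287 (18.6 kb upstream), the longest site of the window at 871 bp, the osteoblast Runx2 peak and the Jun peaks did not touch each other and were bridged by 3T3 Runx2 day 3 peaks. Under the lists' names no GFP peak lay in this group, and with the crossed lists exchanged 3 did. Chondrocyte Runx2 had its only upstream peak here, chr11:94775139-94775287, which overlapped a Jun peak of osteoblasts and no osteoblast Runx2 peak. The site of both is chr11:94775108-94775287, 22.3 kb upstream.

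At the start of Col1a1, the site nearest to the start was held by 5 lists. This site, chr11:94797407-94798137, joined osteoblast Runx2, Jun, the nominal Runx2 day 0 list, GFP day 0 and the nominal GFP day 3 list. The osteoblast Runx2 peak was 241 bp wide and centred 0.227 kb inside the gene, and it came 1101st of 10241 in its file. Jun had 2 peaks in the site, and the wider (442 bp) was its widest in either window. In 3T3 cells the GFP day 0 peak there was 298 bp wide, against 71 bp for the nominal Runx2 day 0 list, and the Runx2 day 3 list had no peak in the site. The centres of the GFP day 0 and the osteoblast Runx2 peak differed by 0.5 bp, while the nominal GFP day 3 peak touched Jun and the nominal Runx2 day 0 peak and not osteoblast Runx2. A FLAG peak at the Col1a1 start was therefore also listed in 3T3 cells that overexpressed GFP. No GFP control of the primary cells was analysed here, and the part of such signal in the osteoblast peak was not tested.

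Just upstream, osteoblast Runx2 and Jun shared chr11:94794914-94795219, 2.43 kb before the start, with peak centres 0.5 bp apart. No 3T3 list had a peak there. Osteoblast Runx2 had a further peak of its own at chr11:94795722-94796031, 1.62 kb before the start. Farther out, Jun overlapped the nominal Runx2 day 0 list at chr11:94789419-94789603, 7.99 kb upstream.

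Inside Col1a1, Jun had 5 peak centres, osteoblast Runx2 1, the nominal Runx2 day 0 list 3, Runx2 day 3 2 and GFP day 0 1. Beyond the start site they formed 4 sites. One at chr11:94798250-94798719 held Jun and both 3T3 Runx2 lists, one at chr11:94800725-94800897 held both 3T3 Runx2 lists, and those at chr11:94798873-94799016 and chr11:94803382-94803654 held Jun alone. All lay within 6.15 kb of the start, and no list had a peak centre in the remaining part of the gene. Whether they lie in exons or introns is not given, since no annotation of mm9 was used here.

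**Figure D3:**
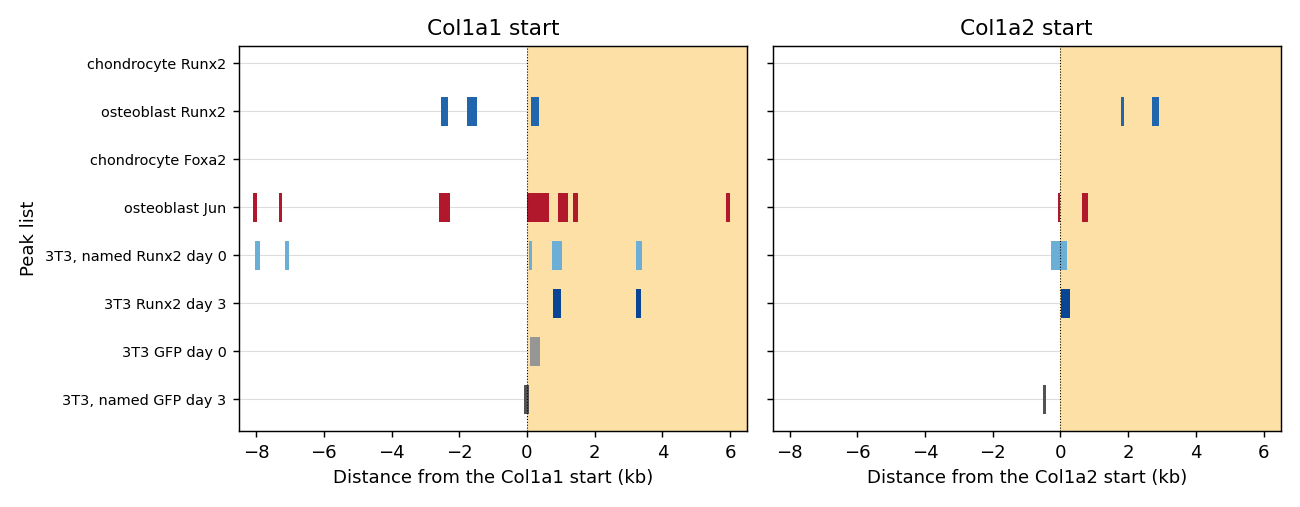
Peaks drawn to scale around the starts of Col1a1 (left) and Col1a2 (right), with the distance from the start in kb on the horizontal axis, 1 row per list and the gene shaded. At Col1a1 the osteoblast Runx2 and Jun peaks meet at 2.43 kb upstream and at the start, where both GFP lists also have a peak; at Col1a2 the osteoblast Runx2 peaks lie 1.83 and 2.80 kb inside the gene, apart from the Jun and 3T3 Runx2 peaks at the start.

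Downstream of Col1a1 lay the places that chondrocyte Runx2 shared with osteoblast Runx2. All 3 sites that held Runx2 of both primary cell types were within a stretch of 3.50 kb, and each also held both 3T3 Runx2 lists, so that these were the 3 sites of the 73 in all 4 Runx2 lists. With the crossed lists exchanged, 1 site was in all 4, the first of the 3. The first, chr11:94850872-94851272 (53.6 kb from the start), was in 6 lists, both GFP lists included. The chondrocyte Runx2 peak there touched the nominal GFP day 3 list and not GFP day 0. The second, chr11:94852062-94852304 (54.7 kb), added Jun to the 4 Runx2 lists and had no GFP peak. The third, chr11:94854140-94854373 (56.8 kb), was in the 4 Runx2 lists only. Between the second and the third the nominal GFP day 3 list had 4 peaks that no other list had.

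Another site, chr11:94840351-94840584 (43.0 kb from the start), held osteoblast Runx2, Jun and both 3T3 Runx2 lists. These places lie beyond the end of Col1a1, which is 16.9 kb from its start. In the RefSeq annotation of GRCm38, the protein-coding genes that follow Col1a1 are Sgca, Hils1, Ppp1r9b, Samd14, Pdk2 and Itga3, in this order, so that nearness to Col1a1 does not assign these sites to it. Beyond them only 1 site held more than 1 list, chr11:94871488-94871775 with Jun and the nominal GFP day 3 list. In the same annotation the protein-coding gene before Col1a1 is Gm11544 and the one before Col1a2 is Bet1. Sites upstream of either collagen gene are therefore not assigned to it by nearness either.

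Col1a2 showed a simpler pattern, with peaks of osteoblasts and 3T3 cells upstream and within the gene and none downstream of it. Its 17 sites fell into 4 groups. The site held by most lists was chr6:4438392-4438628, 17.2 kb upstream, where osteoblast Runx2, Jun and both 3T3 Runx2 lists overlapped and, under the lists' names, no GFP peak lay. Their peaks were 189, 100, 170 and 192 bp wide for osteoblast Runx2, Jun, the nominal Runx2 day 0 list and Runx2 day 3. It was the only site of the window with all of these, against 5 at Col1a1. With the crossed lists exchanged the site held GFP day 3 and no Runx2 day 0, and neither window had a site with all of these (0 and 0).

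A site at chr6:4433760-4434392, 21.6 kb upstream, was made of 2 overlapping osteoblast Runx2 peaks and 1 Jun peak of 72 bp lying within both. That Jun peak came 72nd of 14937 in its file, the earliest of any Jun peak in either window. No 3T3 list had a peak at this site. Farther upstream, chr6:4407697-4407990 (47.9 kb) held Jun and both 3T3 Runx2 lists, and 2 neighbouring sites held the 3T3 Runx2 lists alone.

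At the Col1a2 start, chr6:4455416-4455984 joined a Jun peak of 63 bp with peaks of both 3T3 Runx2 lists (482 bp for the nominal day 0 list and 266 bp for day 3). The Jun peak overlapped the day 0 peak and lay 36 bp from that of day 3. No osteoblast Runx2 peak was listed in this site, whereas one was in the start site of Col1a1. The nominal GFP day 3 list had its only peak of the window near it, at chr6:4455172-4455273, and overlapped no other list. Jun had a peak of 10 bp at chr6:4453260-4453269, 2.44 kb upstream, the narrowest at this gene.

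Within the gene, osteoblast Runx2 had 3 peaks. Those at chr6:4457475-4457585 and chr6:4458394-4458615, 1.83 and 2.80 kb from the start, overlapped no other list, and the third at chr6:4486922-4487119, 31.3 kb from the start, overlapped Jun. Both of these peaks at 31.3 kb came late in their files, after 98.5% of the osteoblast Runx2 list and 99.6% of the Jun list. Jun alone was found at chr6:4456328-4456499 and chr6:4471233-4471347, and 3T3 Runx2 day 3 alone at chr6:4461752-4462203, chr6:4466335-4466509 and chr6:4485942-4486094. Both 3T3 Runx2 lists met at chr6:4480871-4481213. In all, 14 of the 17 sites were in 1 or 2 lists.

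**Figure D4:**
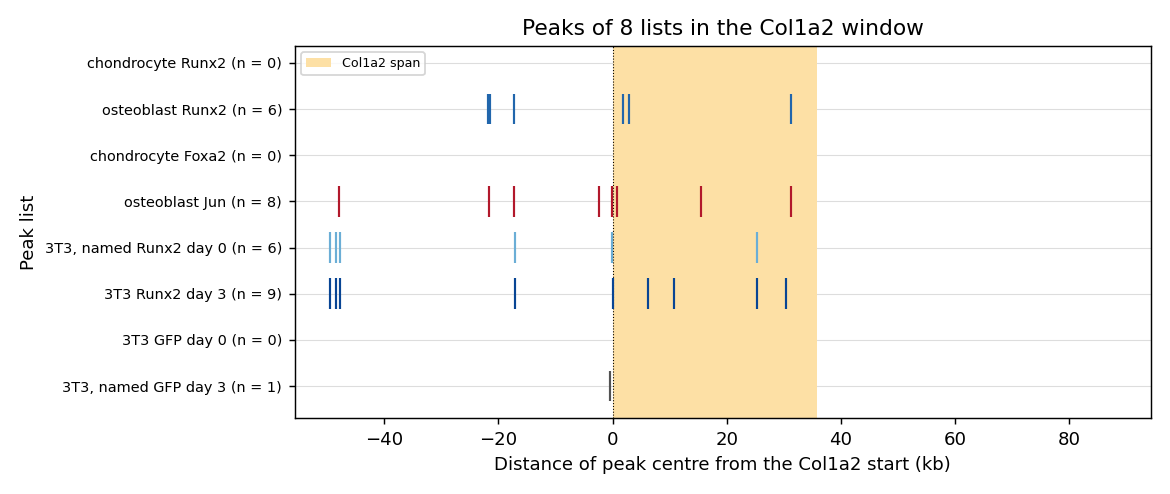
Position of every peak in the Col1a2 window, as kb from the start of the gene (horizontal axis), with the lists in rows, 1 tick per peak and the gene shaded. The 30 peaks come from osteoblast Runx2, Jun, both 3T3 Runx2 lists and, once, the nominal GFP day 3 list. The rows of chondrocyte Runx2, Foxa2 and GFP day 0 are empty, as is the median tile of 150 kb for each of these 3 lists.

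Most osteoblast Runx2 peaks had a Jun peak as a close neighbour at both genes, while most Jun peaks had a close Runx2 peak only at Col1a1. Of the 22 osteoblast Runx2 peaks, 11 (50.0%, Wilson 95% interval 30.7 to 69.3%) overlapped a Jun peak, against 25.3% of the whole list. The count was 7 of 16 at Col1a1 and 4 of 6 at Col1a2, where 2 of the 4 overlapped the same Jun peak at 1 site. Among the wider 50% of the peaks in each list it was 3 of 11 (27.3%), against 15.1% of the osteoblast Runx2 list cut in the same way. From the other side, 11 of 32 Jun peaks (34.4%, 20.4 to 51.7%) overlapped osteoblast Runx2, against 17.6% of the Jun list.

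Counted by distance, 17 of the 22 osteoblast Runx2 peaks had a Jun peak within 500 bp, against 35.4% of the list. The median gap from edge to edge was 48.5 bp, and over the whole list 8632 bp. The largest gap was 2623 bp, at the Runx2 peak 59.2 kb upstream of Col1a1. Of the Jun peaks 19 of 32 lay within 500 bp of osteoblast Runx2, against 27.1%. The count was 16 of 24 at Col1a1 and 3 of 8 at Col1a2, with median gaps of 150.5 and 1383.5 bp. These intervals cover counting error only, and neighbouring peaks of 1 locus are not independent. Both lists were 9.42 to 14.1 times as dense in these windows as over the genome. Whether gaps and overlaps differ from those of equally dense regions was not tested.

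Few osteoblast Runx2 peaks at the collagen genes were listed in chondrocytes. The overlap was 3 of 22 (13.6%, 4.75 to 33.3%), against 45.2% of the whole osteoblast list, and these lay between 53.5 and 56.8 kb from the Col1a1 start. With 4 chondrocyte Runx2 peaks in the windows this share was limited from the outset, so it restates the difference in peak counts. Of the 4 chondrocyte Runx2 peaks 3 overlapped osteoblast Runx2, against 29.9% of that list, and 2 overlapped Jun (17.8%). Each 3T3 Runx2 list held 3 of the 4 as well, against 48.2% for nominal day 0 and 52.7% for day 3. None of the 4 overlapped Foxa2, against 18.3%. The 4 Foxa2 peaks overlapped no list at all, as did 72.8% of the Foxa2 list, and the nearest chondrocyte Runx2 peak was 6417 bp away from one of them and 29658 bp or more from the other 3. With 4 peaks in each of these lists, the shares have wide intervals (30.1 to 95.4% for 3 of 4).

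Between osteoblasts and 3T3 fibroblasts, 11 of 22 osteoblast Runx2 peaks overlapped 3T3 Runx2 day 3 (50.0%, against 58.5% of the list) and 10 of 22 overlapped the nominal Runx2 day 0 list (45.5%, against 53.2%). These shares were near those of the whole list. The day 0 overlap was 2 of 22 with the crossed lists exchanged. Among the wider 50% of each list the day 3 overlap was 2 of 11 (18.2%), against 29.7%. The overlaps lay almost wholly at Col1a1, with 10 of 16 peaks there and 1 of 6 at Col1a2 for day 3, and 9 of 16 and 1 of 6 for day 0. Read from the fibroblast side, 12 of 34 Runx2 day 3 peaks overlapped osteoblast Runx2 (35.3%, 21.5 to 52.1%), against 14.1% of the day 3 list, and 11 overlapped Jun (32.4%, against 13.1%). Both osteoblast lists were dense in these windows, and a difference from equally dense regions was not tested. The GFP day 0 list and the nominal GFP day 3 list each held 2 of the 22 osteoblast Runx2 peaks, against 4.55% and 20.1% of the whole list. Of the 32 Jun peaks 11 overlapped 3T3 Runx2 day 3, against 38%, and 2 and 3 overlapped GFP day 0 and nominal GFP day 3, against 4.94% and 23.7%.

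Peaks overlapping no other list were about as frequent as in the whole list for osteoblast Runx2, with 6 of 22 against 21.7% of its list, and for Jun, with 11 of 32 against 40.6%. None of the 4 chondrocyte Runx2 peaks was private to its list, against 21.3%. In 3T3 cells the private peaks were 6 of 29 for nominal Runx2 day 0 (11%), 10 of 34 for Runx2 day 3 (38.4%), 0 of 2 for GFP day 0 (13.1%) and 7 of 12 for nominal GFP day 3 (39.5%).

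**Figure D5:**
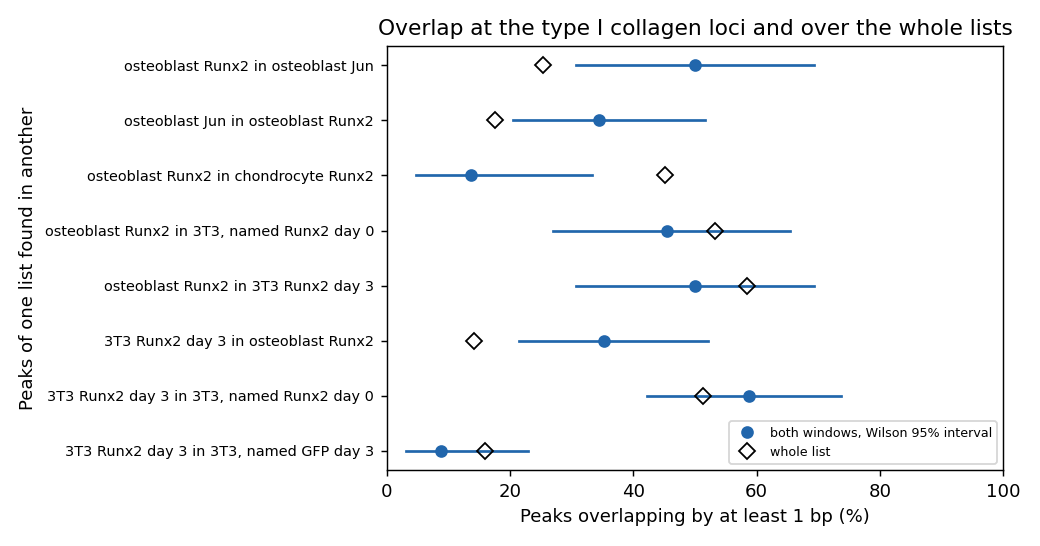
Share of the peaks of one list that overlap another by at least 1 bp (horizontal axis, %), as filled points for both collagen windows together with Wilson 95% intervals and as open diamonds for the whole list. Osteoblast Runx2 is found in Jun at 50.0% against 25.3% (27.3% against 15.1% among the wider 50% of each list, not drawn) and in chondrocyte Runx2 at 13.6% against 45.2%, while its shares in the 3T3 Runx2 lists lie near those of the whole list. The share in chondrocyte Runx2 is limited by the 4 peaks of that list in the windows. Regions of equal peak density were not compared.

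Within 3T3 cells, under the lists' names, most Runx2 peaks at the collagen genes were listed on both days. Of the day 3 peaks 20 of 34 (58.8%, 42.2 to 73.6%) overlapped the nominal day 0 list, against 51.4% of the list, and of the day 0 peaks 20 of 29 overlapped day 3 (69.0%, against 81.8%). The sites in both lists numbered 13 at Col1a1 and 6 at Col1a2, and with the crossed lists exchanged 3 and 0. Overlap with the GFP list of the same day was 3 of 34 at day 3 (8.82%, against 15.9%) and 3 of 29 at day 0 (10.3%, against 4.37%). After the exchange, 20 of 34 Runx2 day 3 peaks overlapped GFP day 3 and 3 of 34 overlapped Runx2 day 0, and at day 0 the overlap of Runx2 with GFP was 1 of 12 (8.33%, against 9.29%). The overlap of fibroblast Runx2 with its control thus depended on which list is taken as GFP day 3. GFP peaks occurred at 10 sites of Col1a1 and 1 of Col1a2, and 4 of these 11 also held a 3T3 Runx2 list. After the exchange these counts were 22 and 6, and 20 of the 28 held a 3T3 Runx2 list.

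Peak widths at the loci ranged from 4 to 482 bp with a median of 174 bp. The widest peak at Col1a1 was 149 bp for chondrocyte Runx2 (22.3 kb upstream), 425 bp for osteoblast Runx2 (17.6 kb upstream), 131 bp for Foxa2 (15.7 kb upstream) and 442 bp for Jun (at the start). In 3T3 cells it was 474 bp in nominal Runx2 day 0 (54.5 kb upstream), 392 bp in Runx2 day 3 (70.0 kb upstream), 298 bp in GFP day 0 (at the start) and 397 bp in nominal GFP day 3 (55.9 kb downstream). At Col1a2 the widest were 381 bp for osteoblast Runx2 (21.8 kb upstream), 233 bp for Jun (47.9 kb upstream), 482 bp in nominal Runx2 day 0 (at the start), 452 bp in Runx2 day 3 (6.28 kb inside the gene) and 102 bp in nominal GFP day 3. At Col1a1 the widest peaks of osteoblast Runx2, Foxa2, both 3T3 Runx2 lists and nominal GFP day 3 overlapped no other list. The same held for those of Runx2 day 3 and nominal GFP day 3 at Col1a2. The widest Jun and GFP day 0 peaks at Col1a1 lay in the start site. Sites in 4 or more lists were made of peaks between 33 and 442 bp. Of the widest peaks without overlap, those of 425, 131, 392, 397 and 102 bp fall in this range and those of 474 and 452 bp do not.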

How the data were processed

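The 8 files were peak lists with chromosome, start and end in 3 columns and no values, as deposited by the authors. The submitters' processing notes name mm9, Bowtie and DiffBind without their roles. Which program called peaks, at what threshold and against which control, and whether the 2 Runx2 libraries of a primary cell type were pooled, is not given in the sources used here. Input, IgG and ATAC-seq libraries (31 of 41 samples) were not analysed here. The members, windows, motifs and naming rule were chosen with earlier results of these data known. Sites named were those in Runx2 of both primary cell types, in Jun or Foxa2 with a Runx2 list, in 5 or more lists, nearest a gene start or within a gene, and the widest peak per list and window; other sites were named after their values were seen. Peaks overlapping by at least 1 bp counted as shared. Shares have Wilson 95% intervals. List means per 100 kb used the length to each chromosome's last peak. Overlaps were checked against bedtools 2.31.1 (0 of 56 pairs differed) and tested on simulated data. Coordinates are 1-based mm9. Promoter sequence came from RefSeq. Python 3.11.15, NumPy 2.4.6, pandas 2.3.3, statsmodels 0.14.6 and matplotlib 3.10.9 were used. Alternatives were other overlap rules, the wider 50% and the first 50% of each list, removal of peaks overlapping a GFP list, narrower windows, exchange of the crossed lists and other joining distances.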

Additional observations from a re-analysis of the deposited data

How the results depend on the processing

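No paired analysis was possible because each group had 1 list and no result came from a test; leaving out replicates was not possible for the same reason. Of 120 values recomputed, 80 stayed within their interval or within 1.5 times the count and 40 moved. Some of the 80 could not move, so their number does not measure stability. The 15 that stayed under exchange of the crossed lists do not involve those lists. Removing peaks that overlap a GFP list left the counts of the GFP lists untouched, and counts of 0 stay 0 when lists or windows are cut. No value moved when overlap needed 50% of the shorter peak, when centres within 500 bp counted as shared, or when peaks overlapping a GFP list, as named, were removed. Overlap with the list named for GFP day 3 could not be recomputed in the last case. The removal was not repeated with the crossed lists exchanged. After that exchange 20 of 34 Runx2 day 3 peaks and 10 of 22 osteoblast Runx2 peaks overlap GFP day 3. Among the wider 50% of peaks per list, the share of osteoblast Runx2 peaks with Jun was 27.3% (3 of 11) and that with 3T3 Runx2 day 3 18.2% (2 of 11), and the 1 chondrocyte Runx2 peak left was not shared (0%). The osteoblast Runx2 list cut in the same way had 15.1% and 29.7%. The first 50% in file order gave 45.5% (5 of 11) and 54.5% (6 of 11) for the same shares with Jun and 3T3 Runx2 day 3. Over the osteoblast Runx2 list cut to its first 50% these shares were 18.6% and 64.5%. The cause of the fall among the wider peaks was not tested. Peaks at Col1a1 in the wider 50% were 1 (chondrocyte Runx2), 7 (osteoblast Runx2), 2 (Foxa2), 9 (named Runx2 day 0), 10 (Runx2 day 3), 1 (GFP day 0) and 4 (named GFP day 3), and at Col1a2 3 (Jun), 2 (named Runx2 day 0), 3 (Runx2 day 3) and 0 (named GFP day 3). In the first 50% in file order they were 9 (osteoblast Runx2), 2 (Foxa2), 14 (Jun), 14 (named Runx2 day 0), 15 (Runx2 day 3), 1 (GFP day 0) and 4 (named GFP day 3) at Col1a1, and 2 (osteoblast Runx2), 4 (Jun), 3 (named Runx2 day 0), 3 (Runx2 day 3) and 0 (named GFP day 3) at Col1a2; there 3 of 3 chondrocyte Runx2 peaks were shared with osteoblasts (100%) and 0 of 18 Runx2 day 3 peaks overlapped the list named for GFP day 3 (0%). For the 3 of 3 and the 0 of 18, the share over the lists cut in the same way is not given here. Both settings keep 50% of each list by construction. With windows cut to the gene and 50 kb on both sides, Col1a1 held 1 Foxa2, 15 Runx2 day 3 and 6 peaks named GFP day 3. With the crossed lists exchanged, Runx2 day 0 had 11 and 1 peaks, GFP day 3 had 23 and 6, and Runx2 day 3 overlapped them at 8.82% and 58.8%. Joining peaks up to 500 bp apart gave 31 sites at Col1a1 in place of 56. The distance for groups, chosen after seeing the data, gave 8 groups at Col1a1 with 10 kb and 9 at Col1a2 with 2 kb. Depth was unknown, so it cannot be said which absent peaks were detectable.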
